A study of Mus musculus with 2 samples.

Results

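Nt5e Ppp1r3b neutrophils were 525 of the 3987 neutrophils found among 11145 CD45+ cells of reperfused mouse hearts, 183 of them in the splenectomy library and 342 in the sham library. They were chosen on the transcript counts of single cells, counted as unique molecular identifiers (UMIs). A cell was taken as a neutrophil when the transcripts of 6 genes (G0s2, Il1r2, Hdc, Mmp9, Csf3r and Cxcr2) made up 0.3% or more of its UMIs and C1qa, C1qb and C1qc together had at most 3. A member also had at least 2 UMIs of Nt5e and Ppp1r3b together, more of these than of Csf1 and Il23a, under 3 UMIs of Retnlg, and under 3 UMIs of Ifit1, Ifit3, Ifit3b and Rsad2 together. High Nt5e and Ppp1r3b, low Retnlg, low interferon transcripts, and Csf1 and Il23a below Nt5e and Ppp1r3b are therefore fixed by the choice. All other genes come from the counts of the same cells, so each comparison of members with other neutrophils is a description without a test.

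The animals were male wild-type mice of the C57BL/6J strain, given as C57BL/6 in the design text, at 8 weeks of age. The spleen was removed in one group, and the other had sham surgery. All animals had 60 min of occlusion of the left anterior descending artery and 24 h of reperfusion, after which CD45+ cells, the leukocytes, were separated on magnetic beads. Each group is 1 library. The library whose title carries no splenectomy tag was taken as the sham library. How many animals were pooled for a library is not stated in the labels, and no uninjured heart was compared. Differences between splenectomy and sham surgery therefore have no replicate check, and animals, surgery and library cannot be told apart. Values in parentheses after a ratio or a share are exact 95% intervals, which cover counting error only. The splenectomy library held 48024013 UMIs in 5087 barcodes and the sham library 53512625 UMIs in 6210 barcodes. The libraries shared 9 barcode sequences, of which 0 were on members.

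Neutrophils enter the injured heart within hours, release granule proteins, oxidants and chemokines, and die or leave over the next days. Nt5e encodes CD73, a cell-surface enzyme that makes adenosine from AMP, and adenosine restrains neutrophils through its receptors. Ppp1r3b encodes a subunit that brings protein phosphatase 1 to glycogen, the stored sugar that neutrophils can feed into glycolysis. Cd101 encodes a surface protein that marks mature mouse neutrophils, Dgat1 an enzyme of the last step of triglyceride synthesis, and Slc22a15 a membrane transporter. In the mm10 annotation Nt5e lies at chr9:88327197-88372092, Ppp1r3b at chr8:35375739-35388139, Cd101 at chr3:100993529-101029556, Dgat1 at chr15:76502015-76511953 and Slc22a15 at chr3:101855776-101924453.

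Promoter sequences are shown for Nt5e, Cd101 and Slc22a15, which are among the marker transcripts, and for Ecm1, which had the highest ratio of members to other neutrophils in the splenectomy library among the 15 highest in both libraries. They come from RefSeq (build GRCm38.p6) and run from 250 bases before the start site to 50 bases after it, which 14 of 20 genes looked up had. Capitals mark GC boxes (GGGCGG), PU.1-type letters (GAGGAA), C/EBP-type letters (TTGCNNAA) and AP-1 letters (TGANTCA), on either strand. The Nt5e window is chr9:88327359-88327658 on the plus strand. Those of Cd101 (chr3:101029504-101029803), Slc22a15 (chr3:101924404-101924703) and Ecm1 (chr3:95739520-95739819) are on the minus strand.
Nt5e: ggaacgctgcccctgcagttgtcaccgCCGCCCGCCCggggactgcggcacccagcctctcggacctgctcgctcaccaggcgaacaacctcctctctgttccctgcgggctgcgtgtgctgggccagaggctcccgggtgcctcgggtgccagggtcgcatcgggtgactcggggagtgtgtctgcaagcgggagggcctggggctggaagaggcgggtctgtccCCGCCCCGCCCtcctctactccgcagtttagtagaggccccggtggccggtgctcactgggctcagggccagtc
Cd101: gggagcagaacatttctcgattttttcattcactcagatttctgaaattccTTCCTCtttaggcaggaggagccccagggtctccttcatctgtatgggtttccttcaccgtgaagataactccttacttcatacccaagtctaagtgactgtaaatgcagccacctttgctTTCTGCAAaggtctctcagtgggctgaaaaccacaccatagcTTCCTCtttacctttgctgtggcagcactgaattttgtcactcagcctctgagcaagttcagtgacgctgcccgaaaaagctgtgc
Slc22a15: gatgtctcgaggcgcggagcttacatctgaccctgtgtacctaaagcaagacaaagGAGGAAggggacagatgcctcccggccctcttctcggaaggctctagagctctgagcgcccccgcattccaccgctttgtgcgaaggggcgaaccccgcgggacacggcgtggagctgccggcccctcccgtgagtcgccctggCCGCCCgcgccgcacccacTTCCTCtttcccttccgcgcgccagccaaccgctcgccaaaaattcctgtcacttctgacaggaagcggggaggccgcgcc
Ecm1: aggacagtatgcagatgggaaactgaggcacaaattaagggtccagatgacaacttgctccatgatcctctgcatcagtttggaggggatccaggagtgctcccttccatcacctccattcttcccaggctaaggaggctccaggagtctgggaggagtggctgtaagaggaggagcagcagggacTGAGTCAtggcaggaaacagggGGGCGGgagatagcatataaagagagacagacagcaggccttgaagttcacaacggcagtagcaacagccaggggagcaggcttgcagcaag
The Nt5e window held 4 GC boxes in overlapping pairs, at 223, 219, 24 and 19 bases before the start site. Cd101 held C/EBP-type letters 78 bases before its start site and PU.1-type letters 199 and 36 bases before it. Slc22a15 held PU.1-type letters 194 and 31 bases before its start site and a GC box 50 bases before it. Ecm1 held AP-1 letters 64 bases before its start site and a GC box 42 bases before it. Of 32851 mouse promoters of this length, 35.7% held a GC box, 28.3% PU.1-type, 10.8% C/EBP-type and 7.81% AP-1 letters. A match describes letters and is not a binding site.

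The cells carried neutrophil transcripts. All 15 neutrophil markers had UMIs in the members of both libraries, and together they made up 130257 CPM (UMIs of a gene, summed over a set of cells and given per 1000000 UMIs of the set) in splenectomy members and 121682 CPM in sham members. The other neutrophils had 142820 CPM of these markers in the splenectomy library and 110591 CPM in the sham library, and cells outside the neutrophil limits had 4206 and 2904 CPM. G0s2, Il1r2, Hdc, Mmp9, Csf3r and Cxcr2 are among these markers, so part of this contrast was fixed by the choice. Each remaining marker was also higher in members than in cells outside the limits. S100a9 had 57126 CPM in splenectomy and 51533 CPM in sham members, against 851 and 678 CPM outside. Slpi had 1238 and 1250 CPM in these members, against 611 and 295 CPM outside. Members and other neutrophils were about equally deep, with medians of 3796 and 3818 UMIs per cell in the splenectomy library and 3368.5 and 3378 in the sham library. The label's markers Nt5e, Ppp1r3b, Slc22a15, Cd101 and Dgat1 all had UMIs in members, but only the first 2 were high, as given next.

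A few members carried transcripts of other cell types. Markers of macrophages had 682 CPM in splenectomy members and 427 CPM in sham members, against 423 and 550 CPM in the other neutrophils and 7760 and 8359 CPM in cells outside the neutrophil limits. C1qa, C1qb and C1qc are among these markers, so part of the contrast with cells outside the limits was fixed by the choice. Markers of monocytes had 716 CPM in splenectomy members and 579 CPM in sham members. Markers of dendritic cells had 317 CPM in splenectomy members, where Flt3, Xcr1, Clec9a and Zbtb46 were at 0, and 814 CPM in sham members, where Cd209a and Xcr1 were at 0. One sham member alone held 419 UMIs of them. Of 4 eosinophil markers, Epx and Prg2, which encode granule proteins, were at 0 in the members of both libraries and Ccr3 had 2 UMIs in splenectomy and 10 in sham members. The fourth, Siglecf, had 62.7 CPM in splenectomy members and 71.8 CPM in sham members, against 36.7 and 58.6 CPM in the other neutrophils and 0.883 and 1.52 CPM in cells outside the neutrophil limits. Markers of other types reached 0.5% of the UMIs in 5 of 183 splenectomy members and 9 of 342 sham members. Counted were monocyte and macrophage markers together, or those of dendritic, B, T, natural killer and endothelial cells, cardiomyocytes and fibroblasts together. Their part in the results was not tested, and values without these cells are given beside a number of results.

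Nt5e had 691 CPM in splenectomy members and 691 CPM in sham members, against 164 and 155 CPM in the other neutrophils of the splenectomy and sham libraries. Ppp1r3b had 275 CPM in splenectomy members and 354 CPM in sham members, against 102 and 111 CPM. The choice set these levels. Both transcripts were found in 93 splenectomy and 179 sham members, Nt5e alone in 66 and 99, and Ppp1r3b alone in 24 and 64. A sum of exactly 2 UMIs, just inside the limit, was held by 61 splenectomy and 113 sham members, while 47 and 103 had 5 or more and the highest sums were 20 and 23. Just outside the limit, 64 splenectomy and 124 sham neutrophils had a sum of 1 and met every other limit.

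The 3 markers that the choice did not use were slightly higher in members. Cd101 had 119 CPM in splenectomy members and 152 CPM in sham members, against 88.2 and 108 CPM in the others, log2 ratios of 0.43 (0.10 to 0.75) and 0.50 (0.27 to 0.72). Dgat1 had 415 and 524 CPM in the members of the splenectomy and sham libraries, against 315 and 355 CPM in the others, log2 ratios of 0.40 (0.22 to 0.56) and 0.56 (0.44 to 0.68). Slc22a15 had 119 and 136 CPM in these members, against 96.1 and 98.8 CPM, log2 ratios of 0.31 (-0.02 to 0.62) and 0.46 (0.22 to 0.70). None of the 3 reached 1.5-fold in either library.

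Across the limit their levels had no common order. Cells with a sum of 2 and with a sum of 1 had 124 and 98.3 CPM of Cd101 in the splenectomy library, and 125 and 116 CPM in the sham library. Dgat1 had 274 CPM just inside and 454 CPM just outside in the splenectomy library, and 486 and 475 CPM in the sham library. Slc22a15 had 99.5 CPM just inside and 140.5 CPM just outside in the splenectomy library, and 143 and 101 CPM in the sham library. Dgat1 also varied among the other sets of neutrophils. It had 348 CPM in splenectomy and 476 CPM in sham neutrophils with 3 or more Retnlg UMIs, nearer to the members' levels than the 266 and 267 CPM of the Csf1 Il23a set, which is under the Retnlg and interferon limits with 2 or more UMIs of Csf1 and Il23a and no excess of Nt5e and Ppp1r3b over them. Against neutrophils that met none of the limits of any set, Cd101 had log2 ratios of 0.12 in the splenectomy and 0.50 in the sham library. Dgat1 then had 0.36 and 0.29, and Slc22a15 0.36 and 0.38.

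**Figure D1:**
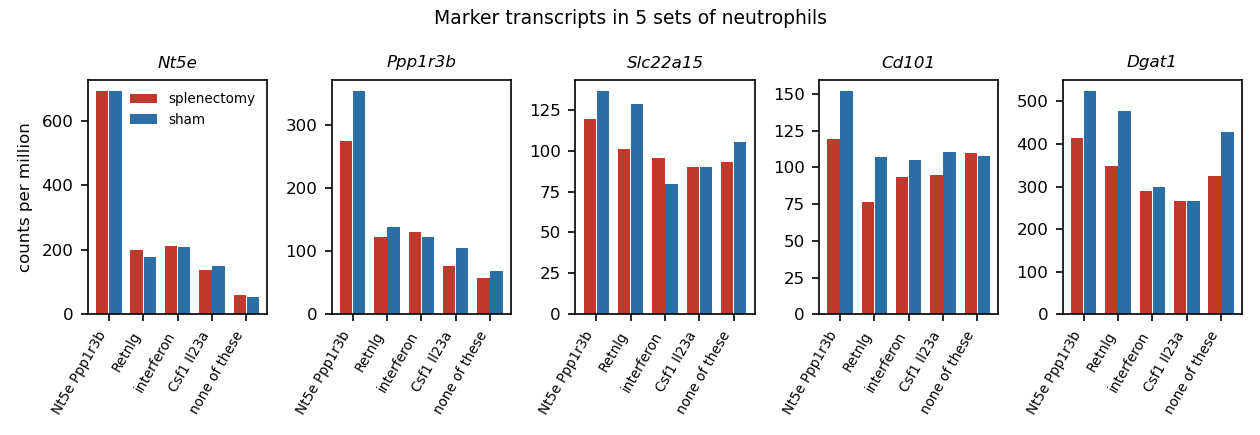
CPM of summed UMIs (y axis) of the 5 marker transcripts in the members and in the other sets of neutrophils (x axis), for the splenectomy and the sham library, with 1 value per library and so no spread over animals. Nt5e and Ppp1r3b are high in members by the choice, and Dgat1 is 524 CPM in sham members and 267 CPM in the sham Csf1 Il23a set.

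Shares of cells with a transcript depend on depth, so each cell was also thinned to 2000 UMIs. Cd101 was then found in 21.5% (15.7 to 28.3) of splenectomy members and 25.9% (21.3 to 31.0) of sham members, against 16.8% and 19.9% of the other neutrophils. Dgat1 was found in 39.0% (31.8 to 46.6) of splenectomy members and 53.4% (47.8 to 58.9) of sham members, against 34.2% and 39.5% of the others. Slc22a15 was found in 22.0% of splenectomy members and 24.1% of sham members, against 16.7% and 17.8%. B cells, taken for comparison, held Cd101 and Slc22a15 in 0 of 82 cells in each library, which allows up to 4.40%. Dgat1 was held by 3 of 82 splenectomy and 5 of 82 sham B cells, and whether this is background was not tested. Thinning left out 6 splenectomy and 14 sham members, and the median depth before it was 3791 UMIs in splenectomy B cells and 3525 in sham B cells. Unthinned, Cd101 was found in 35.0% of splenectomy members and 40.6% of sham members, and Dgat1 in 54.6% and 63.5%.

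Nt5e and Ppp1r3b went together to a modest degree among all neutrophils, whatever the other limits. Neutrophils with 2 or more Nt5e UMIs had 154 CPM of Ppp1r3b in the splenectomy library and 186 CPM in the sham library, against 103 and 129 CPM in neutrophils with no Nt5e UMI. The log2 ratios were 0.59 (0.36 to 0.81) and 0.53 (0.35 to 0.71). Dgat1 went more with Ppp1r3b, at log2 ratios of 0.74 in the splenectomy and 0.50 in the sham library, and less with Nt5e, at 0.23 and 0.27. Whether these ratios differ from each other was not tested.

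Members were 11.3% of splenectomy neutrophils (9.78 to 12.9, Clopper-Pearson) and 14.5% of sham neutrophils (13.1 to 15.9). The difference was -3.18 percentage points (-5.29 to -1.03), and with 1 library per group it cannot be told apart from a difference between animals. Thinned to 2000 UMIs, which left out 107 splenectomy and 235 sham neutrophils, members were 8.98% (136 of 1515) and 11.6% (247 of 2130). Of those deep enough, 101 of 177 splenectomy members and 202 of 328 sham members met the limits again after thinning. Of all kept cells, members were 3.66% in the splenectomy and 5.57% in the sham library.

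The share depends on the other limits. Neutrophils with 3 or more Retnlg UMIs, a secreted protein of young neutrophils, were 35.6% of splenectomy and 16.7% of sham neutrophils. Those under the Retnlg limit with 3 or more UMIs of the interferon transcripts were 8.69% and 21.2%. Among neutrophils under both of these limits, members were 20.3% (17.7 to 23.0) in the splenectomy library and 23.3% (21.1 to 25.5) in the sham library. With these limits dropped, at least 2 UMIs of Nt5e and Ppp1r3b were held by 33.5% of all splenectomy neutrophils (31.2 to 35.9) and 33.3% of all sham neutrophils (31.4 to 35.2). Thinned, these shares were 17.0% and 18.7%. Cells with as much Nt5e and Ppp1r3b were thus also found among neutrophils placed in other sets, at 35.3% in the splenectomy and 31.2% in the sham library for the Retnlg set and 34.0% and 32.9% for the interferon set.

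**Figure D2:**
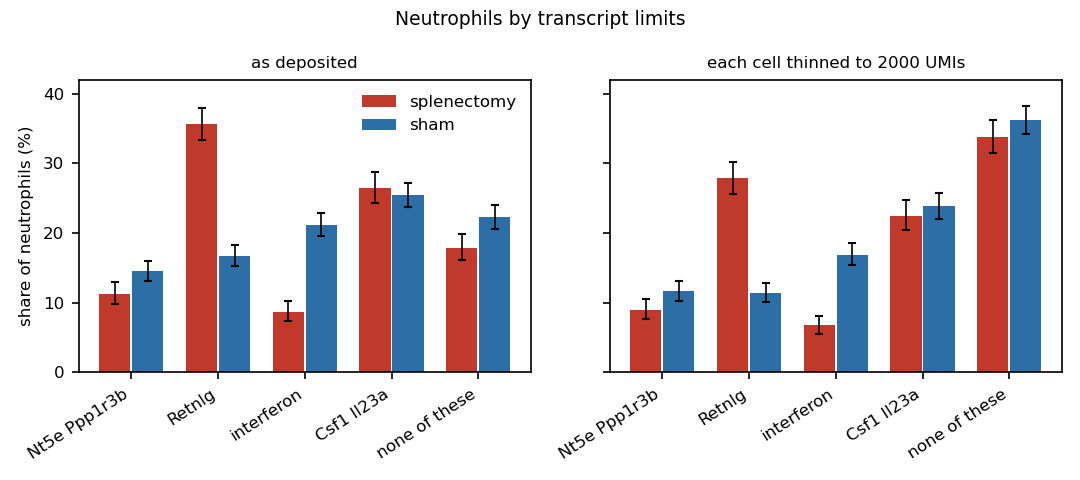
Share of neutrophils (y axis, %) in the sets defined by transcript limits (x axis) in the splenectomy and sham libraries, with exact 95% binomial intervals that cover counting error only. Members are 11.3% of splenectomy and 14.5% of sham neutrophils, and the Retnlg and interferon sets differ more between the libraries.

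Few genes outside the limits were higher in members than in the other neutrophils. At 1.5-fold in both libraries, with at least 50 UMIs in the higher set, 17 of 1828 genes (0.93%) were higher, and the genes named here are from the 15 with the largest smaller ratio. Compared only with neutrophils that met none of the limits of the other sets, 25 genes were higher, but only 9 of the 17 were among them. Nr4a2, an orphan nuclear receptor that many stimuli induce early, had 316 CPM in splenectomy members and 319.6 CPM in sham members, against 149 and 182 CPM in the others, log2 ratios of 1.08 (0.88 to 1.28) and 0.81 (0.65 to 0.97). Cells with a sum of 3 or more, of 2 and of 1 had 368, 195 and 112 CPM of Nr4a2 in the splenectomy library, and 387, 153 and 155 CPM in the sham library. In the sham library only cells with 3 or more stood above the cells outside the limit. The 5 highest cells held 38.1% of the Nr4a2 UMIs in splenectomy members and 26.5% in sham members. Nr4a2 was found in 23.5% of splenectomy and 20.2% of sham members, against 15.6% and 16.7% of the others.

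Bcl2l1, which encodes the survival protein BCL-XL, had 241 CPM in splenectomy members and 188 CPM in sham members, against 132 and 119.5 CPM in the others, log2 ratios of 0.86 (0.63 to 1.09) and 0.65 (0.45 to 0.85). It was spread over many cells, the 5 highest holding 12.5% of its UMIs in splenectomy members and 10.8% in sham members. Smad7 and Ski, which restrain TGF-beta signalling, had log2 ratios of 0.69 (0.38 to 0.99) and 0.63 (0.40 to 0.85) in the splenectomy library and of 0.81 (0.58 to 1.03) and 0.63 (0.44 to 0.81) in the sham library. Rasa2, which switches off Ras, had 293 CPM in splenectomy members and 266 CPM in sham members, against 182 and 157 CPM in the others. Errfi1, a feedback inhibitor of the EGF receptor, had 63.9 and 55.4 CPM in these members, against 34.5 and 34.4 CPM. Its splenectomy ratio of 0.89 was 0.32 without cells carrying other types' transcripts. The 5 highest cells held 47.1% of the Errfi1 UMIs in splenectomy members and 25.7% in sham members. For Zfyve26 they held 44.1% and 25.5%. Prnp, the prion protein gene, had log2 ratios of 0.94 in the splenectomy and 0.66 in the sham library, Cwc25, a splicing factor, of 0.63 and 0.64, Ube2j1, a ubiquitin-conjugating enzyme of the endoplasmic reticulum, of 0.63 and 0.72, and Zfyve26 of 0.81 and 0.64.

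Ecm1, a secreted glycoprotein of the matrix, had 107 CPM in splenectomy members and 53.9 CPM in sham members, against 36.3 and 31.3 CPM in the others, log2 ratios of 1.55 (1.18 to 1.92) and 0.79 (0.39 to 1.17). Mmp19, a matrix metalloproteinase, had 130.3 and 54.6 CPM in these members, against 72.7 and 29.0 CPM, log2 ratios of 0.84 (0.52 to 1.15) and 0.91 (0.51 to 1.30). The 5 highest cells held 51.8% of the Ecm1 and 59.6% of the Mmp19 UMIs in splenectomy members, and 30.6% and 41.1% in sham members. Both genes kept ratios above 1.5-fold in both libraries without cells carrying other types' transcripts. Over 12 settings the splenectomy ratio of Mmp19 ran from 0.43 to 1.33 and its sham ratio from 0.64 to 1.79. Those of Ecm1 ran from 1.02 to 2.01 and from 0.71 to 1.22. Ccl2, the main chemokine for monocytes, had 573 CPM in splenectomy members and 557 CPM in sham members, against 252 and 241 CPM, with 89.1% and 80.6% of the members' UMIs in 5 cells. Without those cells of mixed transcripts it had 84.8 CPM in splenectomy members against 193 CPM in the others, and 536 CPM in sham members against 138 CPM. Csta2, one of several near-identical stefin genes, had 94.5% and 75.7% of its UMIs in 5 splenectomy and 5 sham members. Of the 15 genes 12 remained past the fold in both libraries without cells carrying other types' transcripts, and Ccl2, Csta2 and Errfi1 did not.

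Each library has its own cells, chosen by the same limits. Of 1828 genes with 50 UMIs in the members of both, 39 were at least 1.5-fold higher in sham members than in other sham neutrophils. Of these 39, 17 (43.6%) were also 1.5-fold higher in splenectomy members, where 4.05% of all 1828 genes were. Of 74 genes higher in splenectomy members, the same 17 (23.0%) were higher in sham members, where 2.13% of all genes were. The same limits also place the same sets of cells among the other neutrophils of each library, so the overlap is not independent support. How much of it follows from the choice was not tested. Against neutrophils that met none of the limits, 9 of the 17 remained.

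**Figure D3:**
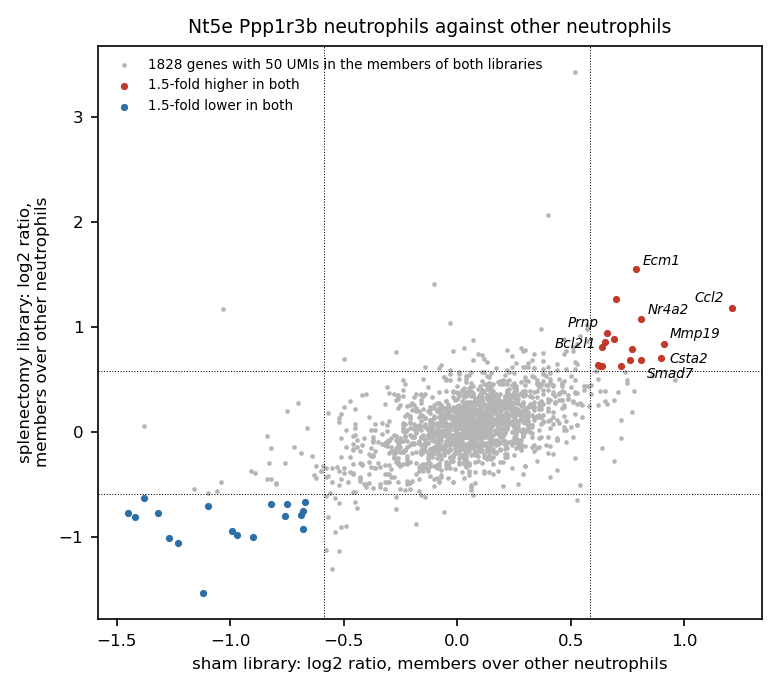
Log2 ratio of CPM of members over other neutrophils in the sham library (x axis) and the splenectomy library (y axis), 1 point per gene with 50 UMIs in the members of both libraries and genes of the limits left out. Red points are the 17 genes at least 1.5-fold higher in both libraries, and blue points those of the lower genes that had 50 UMIs in members.

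Lower in members of both libraries were 138 of 5657 genes (2.44%). The limits bear on these directly, because cells high in Retnlg, in interferon transcripts or in Csf1 and Il23a are among the other neutrophils. The other neutrophils held more UMIs than members, so 50 UMIs is a lower level in them. This share is therefore not comparable with the 0.93% above. Of the 10 named, Ifit2, Herc6, Gbp2, Cxcl10, Cmpk2 and Ifi47 are induced by interferon. Cxcl10, a chemokine for activated T cells, had 35.1 CPM in splenectomy members and 50.1 CPM in sham members, against 214 and 335 CPM in the others, log2 ratios of -2.60 (-3.20 to -2.07) and -2.74 (-3.11 to -2.39). The other 5 interferon genes had 1 to 3 UMIs in splenectomy members and 5 to 16 in sham members. Ifit2 had 1 UMI in splenectomy members and 8 in sham members, log2 ratios of -4.55 (-9.87 to -2.06) and -3.63 (-4.85 to -2.65). Ngp, a granule protein of immature neutrophils, had 6 UMIs in splenectomy members and 1 in sham members, and Ly6g, the neutrophil surface antigen, 7 and 6. Csf3, the gene of the granulocyte growth factor G-CSF, had 8.77 CPM in splenectomy members and 2.25 CPM in sham members, against 34.5 and 21.1 CPM in the others. Serpinb2, a protease inhibitor, had 2 and 5 UMIs in these members. Against neutrophils that met none of the limits, 25 genes were lower in place of 138, and 11 of the 25 were among the 138. Scaling by TMM (trimmed mean of M values) in place of the total shifted all ratios by -0.16 in the splenectomy and -0.08 in the sham library and left 7 genes higher and 221 lower.

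Gene lists were counted over genes with at least 50 UMIs expected in the smaller member set. Of 1749 such genes, 11 (0.629%) were higher in members of both libraries and 29 (1.66%) lower, with median log2 ratios of 0.04 in the splenectomy and 0.05 in the sham library. Of the adenosine and purine list 0 of 3 genes passed in either direction. Entpd1, which encodes CD39 and makes the AMP that CD73 uses, had 466 CPM in splenectomy members and 519 CPM in sham members, against 508 and 439.7 CPM in the others. P2ry6, a receptor for UDP, had 32.6 and 35.9 CPM in these members, against 17.1 and 20.8 CPM, on 26 and 48 UMIs, too few for the count. Of the glycogen list 0 of 6 genes passed, with medians of 0.05 and 0.02. Pygl, the phosphorylase that releases sugar from glycogen, had 272 CPM in splenectomy members and 235 CPM in sham members, against 282 and 232 CPM.

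Of the triglyceride and lipid droplet list 0 of 9 genes passed, with medians of 0.06 in the splenectomy and 0.35 in the sham library. Plin2, which coats lipid droplets, had log2 ratios of 0.39 (0.25 to 0.52) and 0.35 (0.24 to 0.47), and Gpat3, which starts glycerolipid synthesis, of 0.49 and 0.47. Acsl1, which activates fatty acids, had 35.1 CPM in splenectomy members against 116 CPM in the others, but 88.3 CPM in sham members against 89.6 CPM. Of the glycolysis and hypoxia list 0 of 17 genes passed, with medians of 0.19 and 0.16. Vegfa, the vascular growth factor, had 224 CPM in splenectomy members and 268 CPM in sham members, against 126 and 186 CPM, past 1.5-fold in the splenectomy library alone. Without cells carrying other types' transcripts its log2 ratios were 0.90 and 0.60, past the fold in both. Vegfa was not particular to members. The splenectomy interferon set had 224.6 CPM of it and sham neutrophils that met none of the limits 231.1 CPM. The Retnlg set had 92.1 CPM in the splenectomy and 130.8 CPM in the sham library.

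Among the inflammatory lists, only the interferon list had more than 1 gene past the fold in one direction. Of the NF-kB list 0 of 24 genes were higher and 1 was lower (Sod2, the mitochondrial superoxide dismutase), with medians of -0.37 in the splenectomy and -0.36 in the sham library. Nfkbia, the inhibitor that NF-kB induces, had 5422 CPM in splenectomy members and 5059 CPM in sham members, against 6385 and 7199 CPM. Ccl3 and Ccl4, chemokines of activated neutrophils, had log2 ratios of -0.54 and -0.58 in the splenectomy library and -1.16 and -1.10 in the sham library. The limits also place the Csf1 Il23a set among the other neutrophils. Its part in the lower ratios of these inflammatory genes was not tested. Of the cytokine list 1 of 21 genes was higher (Ccl2) and 1 lower (Cxcl1), and without cells carrying other types' transcripts neither passed, at -1.19 and -0.24 in the splenectomy and 1.96 and -1.30 in the sham library. Cxcl2 and Il1b, the most abundant of them, had ratios of 0.07 and 0.05 in the splenectomy library and -0.24 and -0.17 in the sham library. Of the interferon list 0 of 18 genes were higher and 12 lower, with medians of -0.81 and -0.90, which the limits select for. Of the early response list 0 of 21 passed in either direction.

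Of the surface and maturation list 0 of 22 genes were higher and 2 lower. Of the lower genes, Cd274, which encodes PD-L1, had 52.6 CPM in splenectomy members and 58.4 CPM in sham members, against 99.0 and 102 CPM in the others. The Csf1 Il23a set, which the limits place among the others, had 123 CPM in the splenectomy and 102 CPM in the sham library. Neutrophils that met none of the limits had 106 and 73.3 CPM. Of the survival list 1 of 13 was higher (Bcl2l1) and 2 lower, Casp4, an inflammatory caspase, and Pmaip1, which encodes the death protein NOXA. Mcl1, which neutrophils need to survive, had ratios of 0.13 in the splenectomy and 0.02 in the sham library. Of the granule list 0 of 13 passed, with medians of -0.45 and -0.08. Of the chemoattractant receptor list 0 of 18 were higher and 1 lower. Of the oxidase list 0 of 19 were higher and 2 lower, Sod2 and Cybb, the catalytic part of the phagocyte oxidase.

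Between the libraries, splenectomy members had more transcripts of granule genes and fewer interferon-induced ones than sham members, as the other neutrophils did. At 1.5-fold with 50 UMIs in the higher library, 78 of 1834 genes (4.25%) were higher and 219 of 2708 (8.09%) lower in splenectomy members, and 10 in each direction were named. Members held 797874 UMIs in the splenectomy and 1336142 in the sham library, so 50 UMIs is a lower level in sham members. The 2 shares are therefore not comparable with each other. Over genes measured alike for both directions, 3.03% were higher and 4.86% lower. Cd177, a neutrophil surface protein that binds to endothelium, had 181 CPM in splenectomy members and 41.9 CPM in sham members, a log2 ratio of 2.11 (1.65 to 2.58). In the other neutrophils Cd177 had 188 CPM in the splenectomy and 35.1 CPM in the sham library, a ratio of 2.43 (2.24 to 2.62). Ffar2, whose product senses short-chain fatty acids, had 66.4 CPM in splenectomy members and 20.2 CPM in sham members, a ratio of 1.72 (1.02 to 2.44) beside 2.02 in the others. Wfdc17, a small secreted protein, had 1330 CPM in splenectomy members and 466 CPM in sham members, a ratio of 1.51 (1.37 to 1.66) beside 1.52 in the others. Its level was nevertheless lower in members than in the other neutrophils of each library, at log2 ratios of -0.98 in the splenectomy and -0.97 in the sham library.

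Of the remaining named genes that were higher after splenectomy, Mmp19 had log2 ratios of 1.25 in members and 1.33 in the others, Rgcc of 1.05 and 0.75, and Uck2, a kinase of pyrimidine salvage, of 1.19 and 0.85. The Mmp19 ratio in members depended on the processing, from 0.28 to 1.68 over 11 settings. Enah, an actin regulator, had 1.83 and 1.46, and Cdk6, a cell cycle kinase, 1.41 and 0.90. Both had fewer than 50 UMIs once cells with other types' transcripts were left out, at ratios of 1.94 and 1.59. Larp4b, an RNA-binding protein, had 128 CPM in splenectomy members and 58.4 CPM in sham members, a ratio of 1.13 (0.69 to 1.58), and 111 and 98.2 CPM in the other neutrophils, a ratio of 0.18 (0.03 to 0.33). Whether ratios differ between members and others was not tested. Ccl7, a monocyte chemokine, had 382 CPM in splenectomy members and 151 CPM in sham members, with 92.1% and 69.3% of these UMIs in 5 cells. Without cells carrying other types' transcripts it had 52.8 CPM in splenectomy members and 134 CPM in sham members, a ratio of -1.34.

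Of the 10 genes lower after splenectomy, several are induced by interferon. Xaf1 had 17.6 CPM in splenectomy members and 65.1 CPM in sham members, a log2 ratio of -1.89 (-2.82 to -1.07) beside -1.21 in the others. Slfn5, of the Schlafen family, had 62.7 CPM in splenectomy members and 181 CPM in sham members, a ratio of -1.53 (-2.00 to -1.09) beside -1.13. Ifi27l2a had 823 CPM in splenectomy members and 2308 CPM in sham members, a ratio of -1.49 (-1.61 to -1.37) beside -1.36. Psmb9, a subunit of the immunoproteasome, had ratios of -1.65 in members and -1.00 in the others, and Trim12c of -1.54 and -0.65. Sec14l1 had -1.55 (-2.59 to -0.64) in members and -0.25 (-0.47 to -0.04) in the others, Adap1 -1.66 (-2.80 to -0.67) and -0.46 (-0.78 to -0.15), and Atg16l1, which autophagy needs, -1.45 (-2.40 to -0.60) and -0.19 (-0.49 to 0.12). These last 3 had only 12, 10 and 14 UMIs in splenectomy members. H2-Eb1 and H2-Ab1, which encode MHC class II chains, had ratios of -2.08 and -1.72, with 80.3% and 85.0% of the sham UMIs in 5 cells. Without cells carrying other types' transcripts their ratios were -0.57 and 0.20. H2-Ab1 is itself one of the dendritic cell markers by which those cells were left out, as is Cd74, which also serves MHC class II. The filter thus bears on these 2 ratios directly, and they cannot show where the transcripts came from. Csta2, Trim12c, Ifi27l2a and the Ifit and Slfn genes belong to families of close copies, and the sources used here do not say how reads shared by copies were counted, so their values are uncertain.

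**Figure D4:**
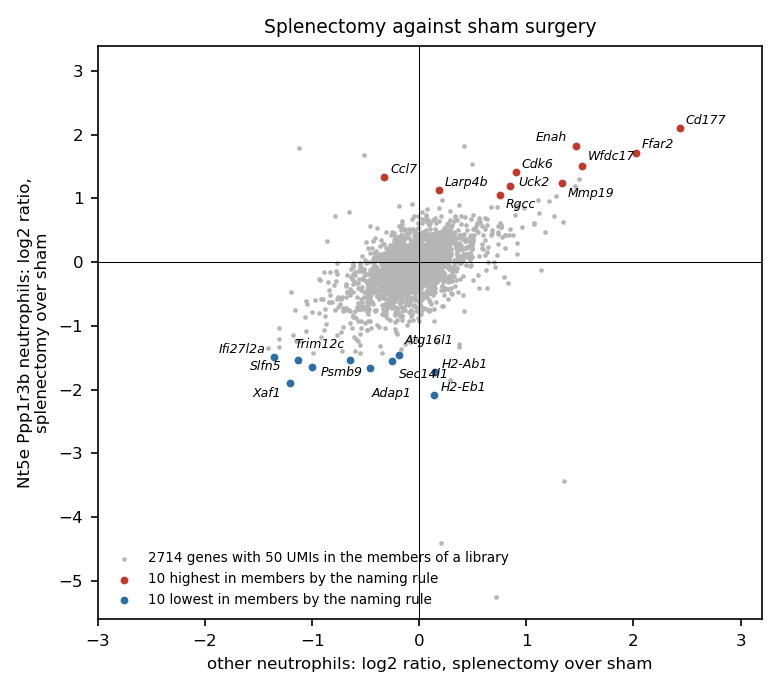
Log2 ratio of CPM of splenectomy over sham in the other neutrophils (x axis) and in members (y axis), 1 point per gene with 50 UMIs in the members of a library, with the 10 higher and 10 lower named genes marked. Cd177, Ffar2 and Wfdc17 are high in both sets of cells, while Ccl7, H2-Eb1 and H2-Ab1, whose UMIs lay mostly in a few cells, are far apart between the sets.

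Of 1850 genes measured for the lists, 56 (3.03%) were higher and 90 (4.86%) lower in splenectomy members than in sham members, with a median of -0.05. In the other neutrophils 52 (2.81%) were higher and 54 (2.92%) lower, with a median of -0.05. The interferon list had 0 of 16 genes higher and 11 lower in members, with a median of -0.74, and 0 higher and 14 lower in the others, with a median of -0.84. Leaving out cells with other types' transcripts, 8 of 14 were lower in members, with a median of -0.68. Isg15, a ubiquitin-like protein, had 263 CPM in splenectomy members and 470.0 CPM in sham members, a ratio of -0.84 (-1.07 to -0.61). Irf7, a transcription factor of the interferon response, had 81.5 and 191 CPM in splenectomy and sham members, a ratio of -1.23 (-1.64 to -0.83). Ifitm3, which blocks virus entry, had a ratio of -0.86 (-1.00 to -0.71). Slfn1 and Isg20 did not pass, with 682 and 94.0 CPM in splenectomy members and 655 and 95.1 CPM in sham members. The libraries thus differed in interferon transcripts even among cells chosen to be low in 4 of them, but the limit did not make members alike in all 4. Ifit3 had 6 UMIs in splenectomy and 51 in sham members, a ratio of -2.34 (-3.86 to -1.12), and Ifit3b had 3 and 21. Ifit1 and Rsad2 had ratios of -0.20 (-1.25 to 0.78) and -0.43 (-1.37 to 0.46).

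The granule and bone marrow list had 5 of 12 genes higher and 0 lower in splenectomy members, with a median of 0.25, and 6 higher and 0 lower in the others, with a median of 0.69. Lcn2, which binds bacterial iron carriers, had 1413 CPM in splenectomy members and 686 CPM in sham members, a ratio of 1.04 (0.92 to 1.17) beside 1.28 in the others. Wfdc21 had ratios of 0.63 (0.49 to 0.76) in members and 1.34 (1.29 to 1.40) in the others, Stfa2l1 of 0.61 and 1.07, and Chil3, a chitinase-like protein, of 0.85 and 0.98. S100a8 and S100a9, the calprotectin genes, had ratios of 0.08 and 0.15 in members and 0.45 and 0.47 in the others. The others hold the Retnlg set, which was more frequent in the splenectomy library, and its part in these values was not tested.

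Of the cytokine list 4 of 21 genes were higher and 0 lower in splenectomy members, with a median of 0.36, and 1 higher and 1 lower in the others, with a median of -0.05. Ccl4 had 2809 CPM in splenectomy members and 1707 CPM in sham members, a ratio of 0.72 (0.63 to 0.80) beside 0.20 in the others. The other 3 were Ccl7, Areg and Ccl9, and Ccl7 is described above. Without cells carrying other types' transcripts 3 of 21 were higher (Ccl4, Areg and Cxcl1) and 2 lower (Ccl2 and Ccl7), with a median of 0.18. Ccl2 then had a ratio of -2.66 and Ccl9 of -0.14. Of the chemoattractant receptor list 4 of 18 were higher and 0 lower. Fpr1, the receptor for formyl peptides, had 308 CPM in splenectomy members and 168 CPM in sham members, a ratio of 0.87 (0.61 to 1.14). Ltb4r1, the receptor for leukotriene B4, had 317 CPM in splenectomy members and 174 CPM in sham members, a ratio of 0.87 (0.61 to 1.13), and Gpr84 and Hcar2 had ratios of 0.64 and 0.59.

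The genes that name these cells differed less between the libraries. Nt5e had a log2 ratio of splenectomy over sham members of 0.00 (-0.16 to 0.15), Ppp1r3b of -0.37 (-0.60 to -0.13), Dgat1 of -0.34 (-0.53 to -0.15), Cd101 of -0.35 (-0.72 to 0.01) and Slc22a15 of -0.19 (-0.57 to 0.17). The first 2 were bounded by the choice. In the adenosine list 1 of 3 genes was higher, Pnp, which breaks down inosine, with 211 CPM in splenectomy members and 138 CPM in sham members. In the glycogen list 0 of 6 passed in either direction. In the lipid list 1 of 8 was higher, Hilpda, a lipid droplet protein induced by low oxygen, with 652 CPM in splenectomy members and 412 CPM in sham members. Its ratio was 0.55 without cells carrying other types' transcripts, in place of 0.66, and 0 of 8 were then higher. Acsl1 was the 1 lower, at a ratio of -1.33 (-1.98 to -0.73) beside 0.37 in the others. In the glycolysis list 4 of 19 were higher, Tpi1, Eno1, Pgk1 and Pfkfb3. Without cells carrying other types' transcripts 0 of 16 were higher, since Tpi1, Eno1 and Pgk1 had ratios of -0.04, 0.45 and 0.26, and Pfkfb3, at 0.78 in place of 0.60, had too few UMIs for the count. Of the surface list 1 of 22 was higher (Cd63) and 1 lower (Clec4a2). The NF-kB list had 1 of 23 higher (Ccl4), the early response list 1 of 21 (Egr3) and the survival list 1 of 12 (Casp4), each with 0 lower, and the oxidase list had 0 of 17 higher and 1 lower (Hmox1).

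**Figure D5:**
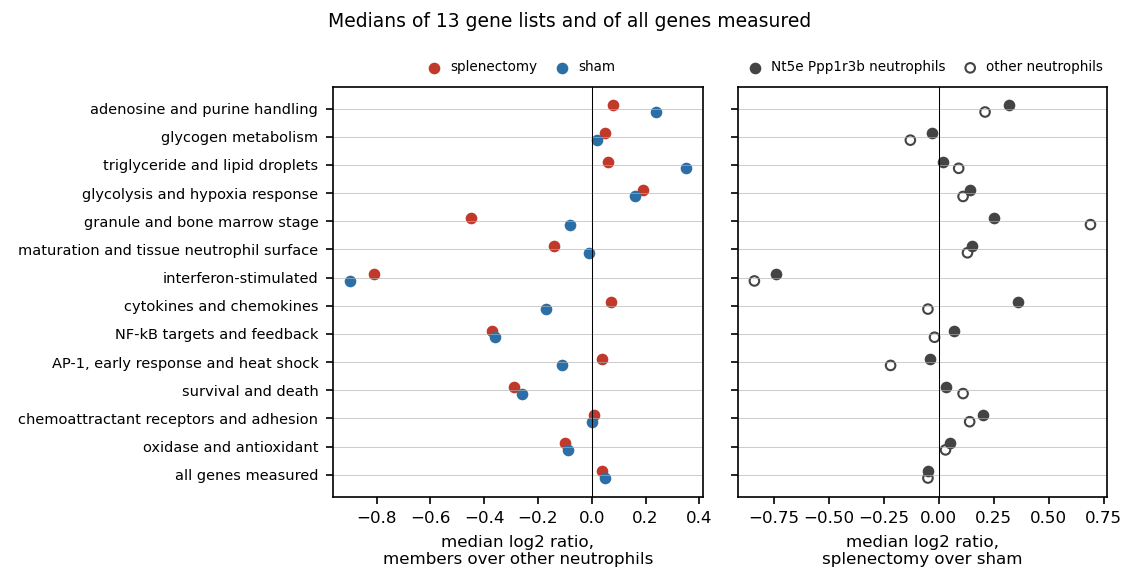
Median log2 ratio of CPM (x axis) of 13 gene lists and of all genes measured (y axis), for members over other neutrophils in each library (left) and for splenectomy over sham in members (filled) and other neutrophils (open, right). The interferon list is lowest in both panels, and the granule list is higher after splenectomy by 0.25 in members and 0.69 in the others.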

How the data were processed

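The deposited files hold UMI counts per gene and cell barcode for 32285 features, made by the authors with Cell Ranger 5.0.0 per the file headers and with a Chromium Single Cell 3' v3 kit per the labels' protocols. STAR and mm10 are named in the submitters' processing notes. The sources used here give neither STAR's version nor the annotation used for counting. Gene positions come from the mm10 reference annotation.

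Cells with at least 200 genes and at most 20% mitochondrial UMIs were kept (26 splenectomy and 32 sham barcodes had fewer genes, 72 and 58 more mitochondrial UMIs), which left 5005 splenectomy and 6140 sham cells at medians of 7600 and 5437 UMIs. Neutrophils were 1622 splenectomy and 2365 sham cells. Members and gene lists were chosen with earlier results of these data known. UMIs were summed over the cells of a set and scaled to CPM, and the 18 genes of the limits were left out of counts and lists. Genes were called from 1.5-fold on, given 50 UMIs or more in the higher set, in both libraries for members against others. Ratios have exact Poisson intervals and shares exact Clopper-Pearson intervals (95%). The interval of the share difference combines the exact intervals of both shares. With 1 library per group there was no test.

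Named were the 15 highest and 10 lowest genes against other neutrophils, by the smaller of the 2 absolute log2 ratios, and the 10 highest and 10 lowest between libraries found in at least 10% of the members of the higher library. Markers, genes of the limits, counted list genes and up to 6 abundant genes per list were also named. Some genes that the rule names are not reported here. The first 2 groups exclude the genes of the limits and mitochondrial, ribosomal protein, haemoglobin, predicted and receptor variable genes. Cells were thinned to 2000 UMIs without replacement. Doublets were not removed except in an alternative with Scrublet (scanpy 1.11.5), which removed 200 splenectomy and 302 sham cells, 8 and 13 of them members. TMM factors came from edgeR 4.0.16, and the rest was computed in python 3.11.15 with numpy 2.4.6, scipy 1.17.1 and pandas 2.3.3. The ratio and the fold rule were tried on simulated data, drawn as independent counts per gene for splenectomy against sham members. Such data cannot show how the rule performs when few cells hold most UMIs, or when both libraries must pass.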

Additional observations from a re-analysis of the deposited data

Results flagged for a closer look

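Areg, which encodes the growth factor amphiregulin, went in opposite directions in members and in other neutrophils when all cells were counted. It had 194 CPM in splenectomy members and 56.1 CPM in sham members, a log2 ratio of 1.79 (1.38 to 2.21), and 18.1 CPM in the other splenectomy neutrophils and 39.2 CPM in the other sham neutrophils, a log2 ratio of -1.12. The difference between these ratios was not tested. Of its UMIs, 98.7% in splenectomy members and 93.3% in sham members lay in 5 cells, and without cells carrying other types' transcripts the ratio was 1.36 in members and 0.80 in the other neutrophils, no longer in opposite directions. Of members over other neutrophils, the log2 ratios were then 3.51 in the splenectomy and 2.95 in the sham library.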

How the results depend on the processing

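No paired analysis was possible because each group is 1 library, and no replicate could be left out. Of 14 settings, 12 were planned and 2 were added after seeing the data (leaving out cells with other types' transcripts, and comparing only with neutrophils that met none of the limits). The share difference kept its direction in the 9 settings that could change it, at -3.76 to -2.16 percentage points. Where a number moved, the cause was not tested unless the setting itself changes how many genes can be counted. Of genes higher in members (17), TMM scaling left 7, a minimum of 20 UMIs gave 40 and a 2-fold limit 1. Other settings gave similar counts but in part other genes. Limits applied after thinning gave 21 genes, 7 of them among the 17, and cells with no C1q UMI 14, 9 of them among the 17. Without the highest doublet scores, with the neutrophil limit at 0.6% and in cells of 2000 to 8000 UMIs, 10 of the 17 remained each time. Limits of 500 genes per cell or 10% mitochondrial UMIs kept all 17. Of genes lower in members (138), a Nt5e and Ppp1r3b limit of 3 gave 211, limits applied after thinning 223, TMM scaling 221, a minimum of 20 UMIs 252, a 2-fold limit 36 and neutrophils that met none of the limits 25. Of the 138, 70 remained after thinning and 110 with the limit of 3. Between splenectomy and sham members, a minimum of 20 UMIs gave 240 higher and 578 lower genes, and a 2-fold limit 17 and 56, in place of 78 and 219. The granule list's median between libraries was 0.51 in cells with no C1q UMI and 0.43 with the limit of 3, in place of 0.25.

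Reversed log2 ratios were those of Ccl2 against other neutrophils, at -0.12 (splenectomy) and -0.37 (sham) without the highest doublet scores, and in the splenectomy library at -0.15 with the neutrophil limit at 0.6% and -1.19 without cells carrying other types' transcripts. Between libraries Ccl7 was -0.56, -0.59 and -1.34 under these 3 settings and -0.07 in cells of 2000 to 8000 UMIs. H2-Eb1 was 0.01 and H2-Ab1 0.08 at 0.6%, and H2-Ab1 0.35 in cells of 2000 to 8000 UMIs and 0.20 without other types' transcripts, a setting that uses H2-Ab1 as a marker. The adenosine list's median was -0.10 against other sham neutrophils with the limit of 3 and -0.01 between libraries after thinning, and Serpinb2 was 0.47 in the sham library after thinning. Against neutrophils that met none of the limits, Ifit2 was 1.60 and Herc6 0.18 in the sham library, and Ifi47 0.18 and Ly6g 0.40 in the splenectomy library. A median depth of 3796 UMIs in splenectomy members and 3368.5 in sham members limits single-cell shares of low transcripts.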
